A study of Mus musculus with 2 samples.

Results

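The 10 early response and stress genes described here were followed through a single-cell RNA sequencing study of mouse liver: Fos, Fosb, Jun, Junb, Egr1, Atf3, Ier2, Ier3, Klf6 and Hspa1a. They were chosen by symbol, and all 10 were found among the 31053 genes of the deposited tables. The study compared C57BL/6 mice fed chow with mice fed a NASH diet (NASH is non-alcoholic steatohepatitis), a food rich in fructose, fat and cholesterol, each for 6.5 weeks. Collagenase digestion released the cells, which were collected on Percoll at 90% and 25%, with spins at 100 g and 1000 g, so that hepatocytes of several densities and non-parenchymal cells entered the same preparation. There was 1 library per diet. The sources used here do not give the number, sex or age of the mice behind a library. The tables count unique molecular identifiers (UMIs), each standing for 1 captured RNA molecule, per gene and cell barcode.

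Immediate early genes are transcribed within minutes of a stimulus, before any new protein is needed, and their transcripts are short-lived. In liver they are known from the first hours after partial hepatectomy, from injury, and from cell preparation itself: warm collagenase digestion is a standard trigger of these transcripts in dissociated tissue. Fos, Fosb, Jun and Junb encode subunits of the AP-1 transcription factor, Egr1 a zinc finger factor induced through ERK signalling, Atf3 a stress-induced bZIP factor, and Klf6 a zinc finger factor. Ier2 and Ier3 are early response genes, the latter linked to cell survival, and Hspa1a encodes the inducible chaperone HSP70.

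Because each diet had 1 library, no difference between the diets could be tested, and diet, animal and preparation cannot be told apart. Levels are CPM, the UMIs of a gene scaled to a total of 1000000 non-mitochondrial UMIs, summed over the barcodes of a cell group. Ratios between the libraries are log2 ratios of these levels with a pseudocount of 1, and a gene is counted as higher or lower in the NASH diet library when it is at least 2-fold apart. Intervals are 95% and exact (Poisson for levels, conditional binomial for ratios), and cover counting error only. The chow library held 7359 barcodes and 71635757 UMIs, and the NASH diet library 5881 barcodes and 39440182 UMIs. The median mitochondrial share per barcode was 20.7% in the chow and 34.3% in the NASH diet library. Both libraries shared 69 barcode sequences.

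Cell groups were built from marker genes among barcodes with 200 or more genes, 500 or more UMIs and a mitochondrial share of up to 30%. Hepatocyte barcodes were split by depth into deep (at least 5000 non-mitochondrial UMIs, 1981 chow and 1054 NASH diet barcodes), intermediate (from 1500, 278 and 288 barcodes) and shallow (under 1500, 1907 and 875 barcodes). The endothelial gate held 55 and 46 barcodes, the Kupffer cell gate 63 and 39, and the gate for other leukocytes 18 and 29. All 14 endothelial markers were detected in the endothelial barcodes and all 13 Kupffer markers in the Kupffer barcodes of both libraries. These barcodes were chosen by the same markers, so marker detection cannot test the gates. Deep hepatocyte barcodes of both libraries also showed all 14 endothelial markers. They showed all 13 Kupffer markers with chow, while 5 were undetected with the NASH diet. Of the 22 markers for other leukocytes, 3 were undetected in that gate with chow and 1 with the NASH diet. Hepatocyte markers, which made up 7.73% and 11.3% of the UMIs of deep hepatocyte barcodes, still made up 0.757% and 0.560% in the endothelial barcodes and 0.712% and 1.97% in the Kupffer barcodes. Malat1, a nuclear RNA that marks barcodes holding a nucleus, is given beside the results where it moved with them.

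RefSeq promoters (250 bases before to 50 after the start, build GRCm38.p6) were given for 8 of the 10 genes, and also for Hspa1b, the near-identical neighbour of Hspa1a. The searched words were TGACG, the core of the cAMP response element bound by CREB and ATF factors, TGANTCA, the AP-1 site, and the heat shock element written as GAANNTTC or TTCNNGAA, each on both strands. The cAMP element core was found in Fos, Fosb, Junb and Atf3, and in 20.8% of 32851 promoters of this length. The heat shock element was found in Jun and Hspa1a, and in 15.1% of all promoters, and the AP-1 site in 0 of the 8 and in 7.81% of all. Klf6 and Ier3 held none of the 3 words in this window. A match describes the letters and shows no binding. Fos (chr12:85473640-85473939, plus strand) is shown because it held 2 cAMP element cores, which 5.01% of all promoters did. Junb (chr8:84978699-84978998, minus strand) is shown beside it because it was lower in the NASH diet library in every mitochondrial range of deep hepatocytes, which Fos was not, and Hspa1a (chr17:34972107-34972406, minus strand) because of its copy Hspa1b. Each runs 5′ to 3′, with the cAMP element cores (Fos, Junb) or the heat shock element (Hspa1a) in capitals.
Fos: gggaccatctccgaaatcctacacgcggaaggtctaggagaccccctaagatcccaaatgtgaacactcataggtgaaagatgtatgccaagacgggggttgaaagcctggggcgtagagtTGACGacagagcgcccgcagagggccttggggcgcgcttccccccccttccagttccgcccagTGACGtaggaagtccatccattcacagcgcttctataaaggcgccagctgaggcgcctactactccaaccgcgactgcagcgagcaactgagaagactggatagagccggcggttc
Junb: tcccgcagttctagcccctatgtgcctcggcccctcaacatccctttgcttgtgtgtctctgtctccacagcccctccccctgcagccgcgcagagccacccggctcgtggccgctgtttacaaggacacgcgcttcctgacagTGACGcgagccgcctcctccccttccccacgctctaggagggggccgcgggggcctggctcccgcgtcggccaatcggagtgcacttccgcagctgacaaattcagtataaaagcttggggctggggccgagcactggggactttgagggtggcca
Hspa1a: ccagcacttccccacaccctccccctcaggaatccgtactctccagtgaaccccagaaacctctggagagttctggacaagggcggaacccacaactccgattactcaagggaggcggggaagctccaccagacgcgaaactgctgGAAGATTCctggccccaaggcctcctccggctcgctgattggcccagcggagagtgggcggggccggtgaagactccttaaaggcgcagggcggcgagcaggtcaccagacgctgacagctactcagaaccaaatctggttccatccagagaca

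The Hspa1a and Hspa1b promoters were identical at 296 of 300 bases. Their transcripts share 49.3% of the 90-base windows of Hspa1a, but 0 of 411 windows in the last 500 bases, the part that a 3′ kit reads. The count of each can still be split wrongly where reads fall further upstream.

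In GENCODE M21 (GRCm38), Fos lies at chr12:85473890-85477273, Fosb at chr7:19302696-19310051, Jun at chr4:95049034-95052222 and Junb at chr8:84974484-84978718. Atf3 lies at chr1:191170296-191218039, Ier2 at chr8:84661331-84662852, Ier3 at chr17:35821684-35822923, Klf6 at chr13:5861482-5870394 and Hspa1a at chr17:34969190-34972156. All are protein-coding.

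The first comparison asked where in the liver these transcripts were. Over all barcodes the 10 genes summed to 38121 UMIs in the chow and 19532 in the NASH diet library. Deep hepatocytes held 88.2% of them in chow but 53.6% in the NASH diet library. There, 17.2% lay in barcodes above 30% mitochondrial UMIs, 7.59% in barcodes that passed 2 cell type gates, 6.57% in endothelial barcodes, 4.78% in intermediate hepatocyte barcodes and 3.51% in 2 cholangiocyte-gated barcodes. A whole-library total therefore sums different cells in each diet. Summed over the 10 genes, the level in CPM was 802 and 585 in deep hepatocytes and 2053 and 4836 in endothelial barcodes.

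**Figure D1:**
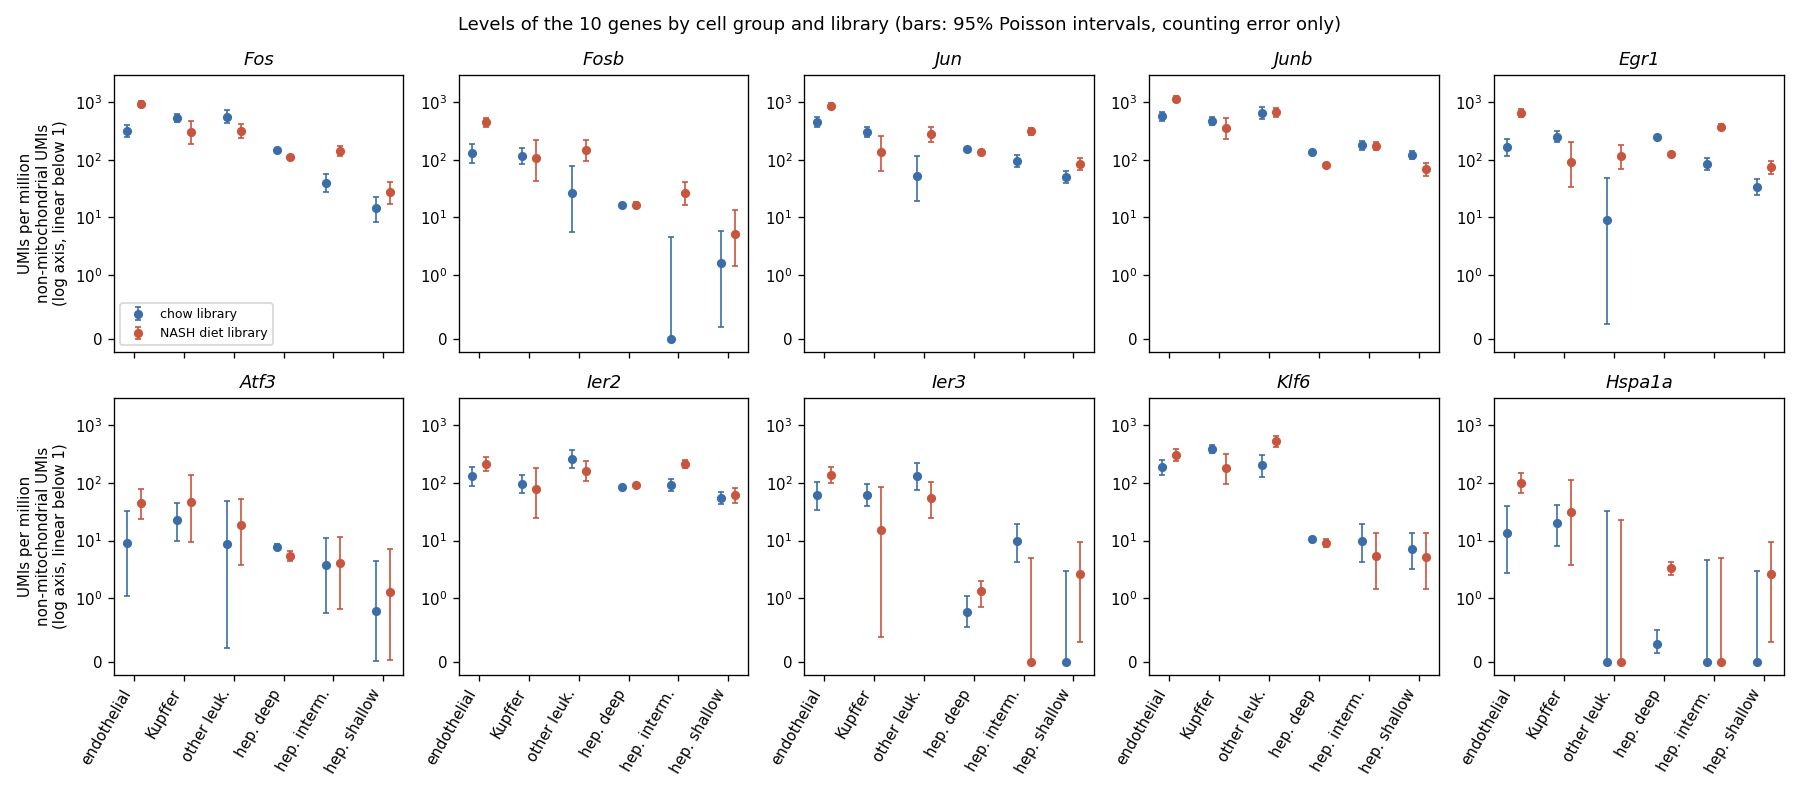
Level of each of the 10 genes (CPM, log axis that is linear below 1) in 6 cell groups of the chow and NASH diet libraries, with 95% Poisson intervals that cover counting error only. Each endothelial level is higher in the NASH diet library, while in deep hepatocytes Egr1 and Junb are lower and Hspa1a is higher.

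Among the AP-1 subunits, Fos was highest in chow in other leukocytes and Kupffer cells, at 565 and 536 CPM, which did not differ beyond their intervals, then in endothelial cells at 321. Chow deep, intermediate and shallow hepatocytes followed at 146, 40.0 and 14.3. In the NASH diet library endothelial barcodes led at 923, followed by other leukocytes at 317 and Kupffer cells at 309, which overlapped. Intermediate (141) and deep hepatocytes (114) overlapped next, and shallow ones were at 27.2. Among these 6 groups the highest was thus leukocytes in chow and endothelium in the NASH diet library. The few cholangiocyte-gated barcodes stood above them, at 2884 and 3351. The orders given for the other genes also cover these 6 groups only, without the few cholangiocyte-gated and mesenchymal barcodes. Fosb was led by endothelial (129) and Kupffer barcodes (117) in chow, which overlapped, and by endothelial barcodes alone (452) in the NASH diet library. Its deep hepatocyte level was 16.6 and 16.3.

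Jun was highest in endothelial barcodes of both libraries, at 460 and 859 CPM. The next highest group was Kupffer cells in chow (304) and intermediate hepatocytes in the NASH diet library (313). Deep hepatocytes stood at 151 and 138, shallow ones at 50.7 and 85.4. Junb in chow did not separate the non-parenchymal groups: other leukocytes, endothelial and Kupffer barcodes stood at 662, 571 and 479, each overlapping the next. In the NASH diet library endothelial Junb stood apart at 1134, above other leukocytes at 665 and Kupffer cells at 356. Hepatocyte Junb was 134 and 82.4 in deep, 179 and 175 in intermediate, and 121 and 68.5 in shallow barcodes.

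Egr1 in chow did not differ beyond counting error between deep hepatocytes and the highest non-parenchymal group among the 6 groups. Its level was 252 in Kupffer cells and 249 in deep hepatocytes, which overlapped, then 165 in endothelial, 86.1 in intermediate and 34.1 in shallow barcodes, with 1 UMI in other leukocytes. In the NASH diet library deep hepatocytes stood lower in the order: endothelial barcodes were at 656 and intermediate hepatocytes at 368, above deep hepatocytes at 124. Other leukocytes at 116, Kupffer cells at 92.8 and shallow hepatocytes at 75.01 followed, each overlapping the next.

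Ier2 was spread over all groups. In chow its levels were 265 in other leukocytes, 134 in endothelial, 97.4 in Kupffer, 93.6 in intermediate and 85.9 in deep hepatocyte barcodes, with each neighbour overlapping, and 54.7 in shallow ones. In the NASH diet library endothelial barcodes were at 215, intermediate hepatocytes at 211 and other leukocytes at 165, overlapping in turn, above deep hepatocytes at 91.7. Klf6 and Ier3 had low hepatocyte levels throughout. Klf6 was 393 in chow Kupffer cells and 537 in other leukocytes of the NASH diet library, the highest of the 6 groups in each. In deep hepatocytes Klf6 was 10.5 and 9.06. Ier3 was led by other leukocytes in chow (132, overlapping Kupffer cells at 63.0) and by endothelial barcodes in the NASH diet library (139, overlapping other leukocytes at 54.9), against 0.788 and 1.34 in deep hepatocytes.

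Atf3 and Hspa1a were sparse. Atf3 stood at 7.83 and 5.48 in deep hepatocytes. Its higher values in Kupffer (22.9 and 46.4) and endothelial barcodes (8.93 and 45.2) rest on 8 and 3, and 2 and 12, UMIs, and every neighbour in its order overlapped the next. Hspa1a had 12 UMIs in 1981 chow deep hepatocytes and 59 in 1054 of the NASH diet library. No Hspa1a UMI was found in other leukocytes or intermediate hepatocytes of either library. In the leukocytes the upper limits of the intervals were 32.5 CPM in chow and 22.5 CPM in the NASH diet library.

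Over the 12 profile points (6 groups in 2 libraries, which share libraries and depth), the profile most like that of Fos among 10499 genes was Hnrnpa2b1 (Pearson r of log2 levels 0.97), that of Fosb Gatad2b (0.98) and that of Jun Crtc3 (0.97). The most alike were Rps12-ps3 for Junb (0.97), Fbxl20 for Egr1 (0.94), Ints13 for Atf3 (0.96) and Gm42047 for Ier2 (0.92). They were Ly6a for Ier3 (0.95), Ptpre for Klf6 (0.99) and Vat1 for Hspa1a (0.94). None of the 3 genes nearest to each member was another member. Among the members themselves, Junb and Klf6 had an r of 0.92 and Ier3 and Klf6 of 0.91, while Egr1 and Klf6 were at 0.06 and Egr1 and Ier3 at -0.03. With 12 points and so many genes these values describe likeness and are not evidence of a shared control.

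In deep hepatocytes the 10 genes went both ways. Egr1 was 249 CPM in chow (10450 UMIs) and 124 in the NASH diet library (2217 UMIs), a log2 ratio of -1.002 (interval -1.08 to -0.94 without pseudocount). Junb was 134 and 82.4, a log2 ratio of -0.70 (-0.79 to -0.62). Both were lower in the NASH diet library by more than counting error. Fos was 146 and 114, at -0.36 (-0.43 to -0.29), and Atf3 7.83 and 5.48, at -0.45 (-0.85 to -0.18 without pseudocount). Jun, Fosb, Ier2 and Klf6 stayed within 0.2 of 0: their log2 ratios were -0.13, -0.03, 0.09 and -0.20, and of these the intervals of Jun and Ier2 excluded 0. Ier3 had a log2 ratio of 0.39 from 33 and 24 UMIs, with an interval that includes 0.

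Hspa1a went the other way. It was 0.286 CPM in chow and 3.30 with the NASH diet, 11.5-fold apart (6.13 to 23.6), or 1.74 on the log2 scale with the pseudocount of 1, which shrinks so low a level. Hspa1b, the copy beside it, was 26.5 in both (log2 ratio -0.00, -0.16 to 0.15). The sum of both genes had a log2 ratio of 0.15. The Hspa1a count was spread over 43 of the 1054 barcodes (4.08%) and 11 of the 1981 in chow (0.555%), with at most 4 UMIs in 1 barcode.

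Of the 10 members tested (at least 20 UMIs over both libraries), 1 was at least 2-fold higher, Hspa1a, where 3.40% of 11555 genes were, and 1 was at least 2-fold lower, Egr1, where 2.0% were. Hspa1a, with 12 and 59 UMIs, reached that minimum mainly through the NASH diet library. The median log2 ratio was -0.16 over the members and 0.15 over all genes. The Egr1 value sat on the 2-fold line and was inside it with, for example, a pseudocount of 10 or the mean over barcodes. The deep hepatocytes of the NASH diet library were shallower (median 15959 against 21092 non-mitochondrial UMIs) and had more mitochondrial RNA (median 23.4% against 18.4%). The part of these differences in the result was not tested beyond the strata given below.

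**Figure D2:**
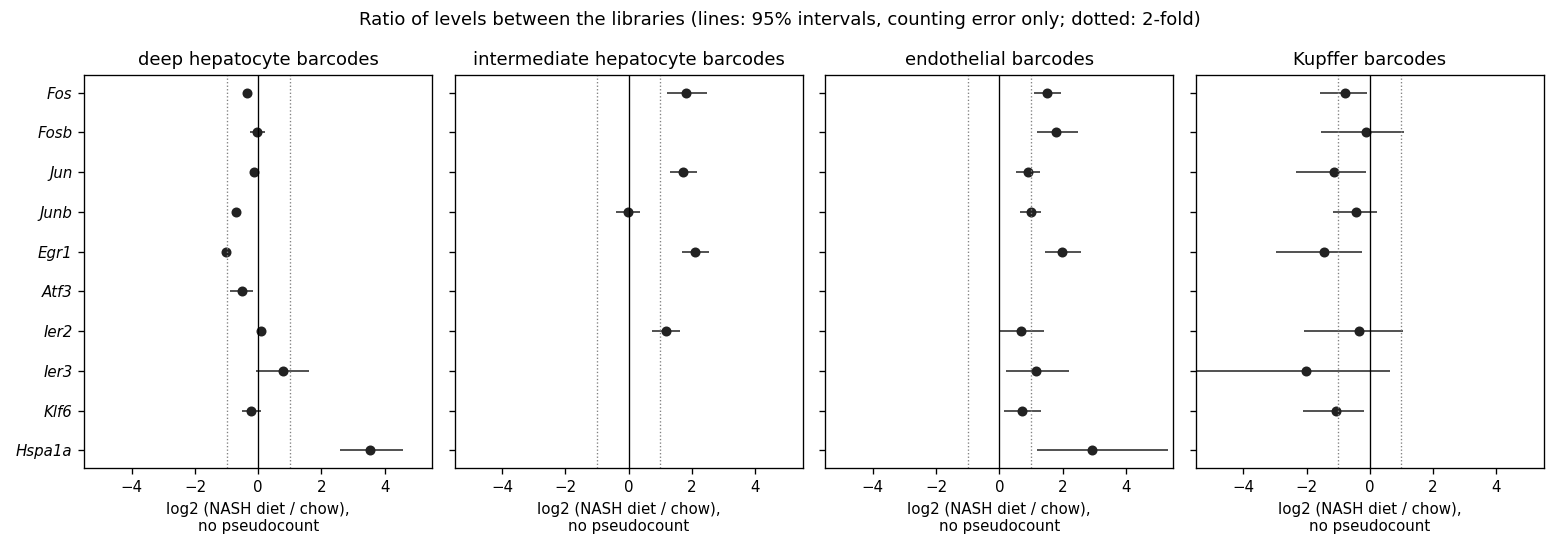
Log2 ratio of the NASH diet over the chow level without pseudocount (x axis) for genes with at least 20 UMIs and a UMI in both libraries, in 4 cell groups; lines are 95% intervals for counting error only and dotted lines mark 2-fold. Points lie on both sides of 0 in deep hepatocytes, all to the right in endothelial and all to the left in Kupffer barcodes.

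The share of barcodes with a UMI told the same for Egr1. After thinning each deep hepatocyte barcode to 1000 non-mitochondrial UMIs, Egr1 was seen in 19.4% of chow barcodes (exact binomial interval 17.7 to 21.2%) and 9.30% of NASH diet barcodes (7.61 to 11.2%), against 86.2% and 57.3% without thinning. Junb was seen in 12.5% (11.1 to 14.1%) and 7.12% (5.64 to 8.84%). Fos was seen in 12.01% and 10.2%, Jun in 12.1% and 11.9%, and Ier2 in 8.28% and 8.82%, each pair with overlapping intervals. No cell group is known to lack these genes, so no background share from free RNA was set for them.

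Within the deep hepatocytes of the NASH diet library the UMIs sat in fewer barcodes, which also had fewer UMIs in all. The median barcode held 62.0 CPM of Egr1 against 212 in chow, 41.9 of Fos against 83.3, and 81.8 of Jun against 122. At the 90th percentile Egr1 was 282 against 477, Junb 198 against 263 and Fos 324 against 362, all lower in the NASH diet library, while Jun was 324 against 309 and Ier2 208 against 188. The upper 10% of barcodes by level held 44.8% of Jun UMIs in the NASH diet library and 30.9% in chow, and 47.9% against 28.4% for Egr1. With every barcode thinned to 5000 UMIs, 26.1% of NASH diet barcodes showed none of the 10 genes and 27.4% showed at least 3, against 10.3% and 45.7% in chow. The highest number of these genes in 1 barcode was 9 in the NASH diet library and 7 in chow. Barcodes without any of the genes were thus more frequent in the NASH diet library, and the levels of the genes were more closely correlated. The correlation across barcodes between Fos and Egr1 was 0.50 in the NASH diet library (1054 barcodes) and 0.27 in chow (1981 barcodes), and between Jun and Ier2 0.40 and 0.14. These r values come from sparse counts of barcodes within 1 library each. The deep group also pooled unlike barcodes. Of the 1981 chow barcodes 152 had a mitochondrial share below 10%, as did 121 of the 1054 NASH diet barcodes. In that range an Egr1 UMI was present in 15.1% and 11.6%, and a Malat1 UMI in 8.55% and 33.9%. The part of this mixture in the share of barcodes without any gene and in the correlations was not tested.

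The barcodes were next ordered along the portal to central axis of the liver lobule, a split chosen after the data were seen. The score was the log2 ratio of summed pericentral genes (Cyp2e1, Oat, Cyp1a2, Gulo, Slc1a2, Glul, Cyp2a5, Lect2) over periportal genes (Cyp2f2, Hal, Sds, Uroc1, Ctsc, Hsd17b13, Pck1, Gls2), and each library was divided by rank into 3 parts of equal size. Fos was lowest at opposite ends of the axis. From the periportal through the middle to the pericentral part it was 181, 159 and 96.9 CPM in chow, and 79.9, 129 and 131 in the NASH diet library. The middle and pericentral levels of the NASH diet library overlapped. Atf3 was lowest in the pericentral part of chow and highest there in the NASH diet library, at 9.14, 9.62 and 4.78 in chow and 2.20, 3.96 and 9.38 with the NASH diet. Fosb was 19.2, 16.5 and 13.9 in chow and 7.45, 17.2 and 23.1 with the NASH diet, with neighbouring parts overlapping in chow and the middle and pericentral parts with the NASH diet.

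Egr1, Jun and Ier2 were nearly level across the chow parts and highest in the pericentral part of the NASH diet library. Egr1 was 247, 269 and 234 in chow and 66.0, 127 and 171 with the NASH diet. Jun was 148, 158 and 148 in chow, and 80.4, 129 and 194. Ier2 was 86.6, 86.9 and 84.2, and 56.7, 85.4 and 126. The ratio between the libraries differed by position, a difference that was not tested: for Egr1 it was -1.89 in the periportal and -0.45 in the pericentral part, and for Fos -1.17 and 0.44. Junb was lower in the NASH diet library in all 3 parts (-1.15, -0.63 and -0.38). Hspa1a was highest at the pericentral end, with 42 of the 59 NASH diet UMIs.

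In chow, from periportal to pericentral, median depths were 22693, 19421 and 20470.5 non-mitochondrial UMIs, median mitochondrial shares 17.6%, 18.0% and 20.2%, and Malat1 levels 1442, 1188 and 1038, so that Malat1 was lower along the axis together with Fos. In the NASH diet library median depths were 15774.5, 13691 and 18688 non-mitochondrial UMIs, median mitochondrial shares 23.7%, 24.3% and 22.1%, and Malat1 levels 1403, 2095 and 1466. Endothelial markers made up 0.000593%, 0.000595% and 0.00215% of the UMIs in these NASH diet parts, highest where Egr1, Jun and Ier2 were highest, and 0.000727%, 0.000450% and 0.000557% in chow; their part in the result was not tested. Limited to barcodes of at least 10000 UMIs and 10 to 30% mitochondrial UMIs, Fos was 184, 175 and 102 in chow and 86.5, 124 and 127 with the NASH diet, and Egr1 250, 295 and 244, and 71.9, 122 and 162. Malat1 in these barcodes was 1458, 1260 and 1031 in chow, and 1536, 1452 and 925 with the NASH diet. The parts were divided within each library, so equal labels do not show equal positions if the diet moved the zonation genes themselves, which was not tested.

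**Figure D3:**
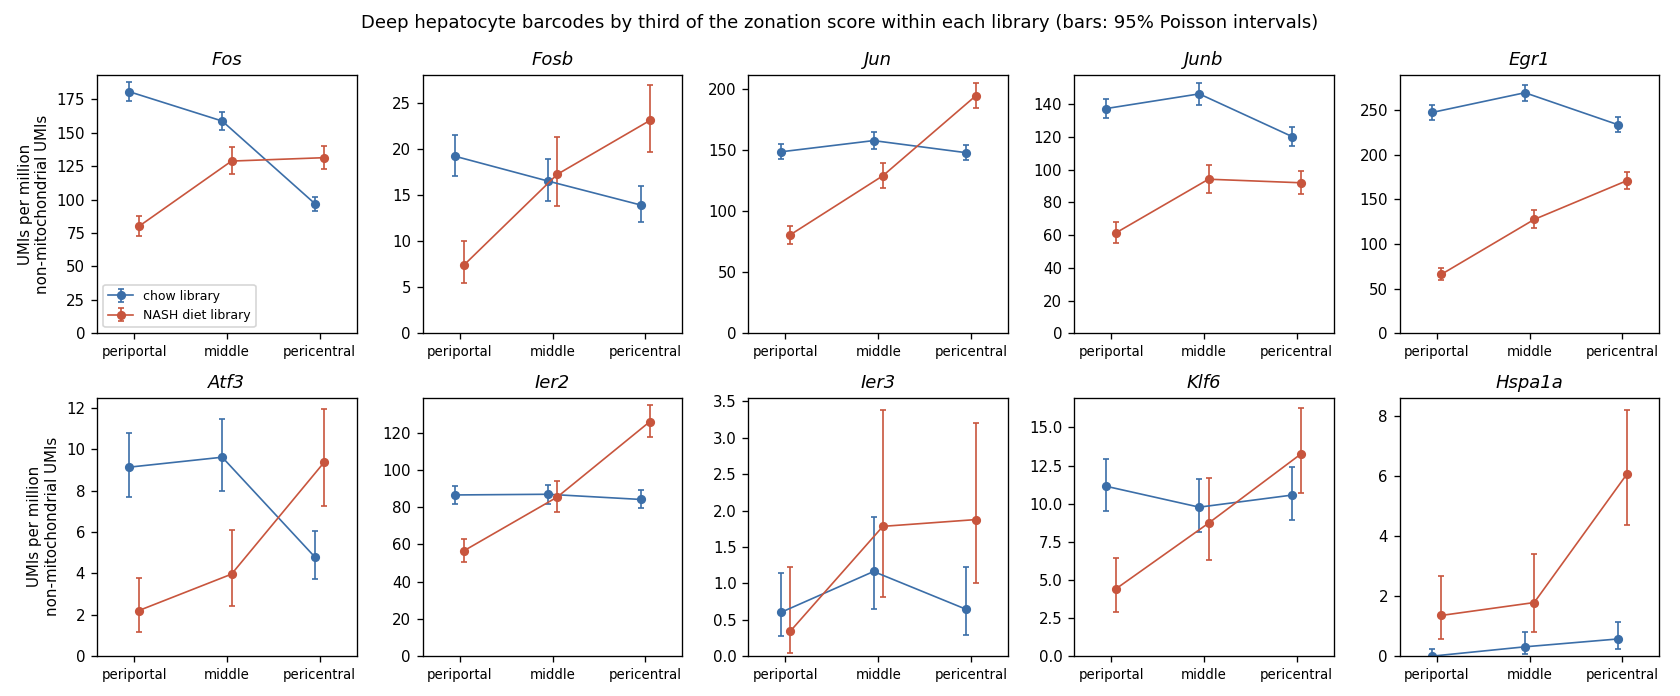
Level of each gene (y axis, CPM) in deep hepatocyte barcodes of the periportal, middle and pericentral part of each library, with 95% Poisson intervals. Fos and Atf3 are lowest at the pericentral end in chow. In the NASH diet library Egr1, Jun, Ier2 and Atf3 are highest at that end, and Fos overlaps between the middle and pericentral parts.

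A high mitochondrial share is a common sign of damaged cells. In deep hepatocytes the share went with the direction of the difference for some of the genes. Below 10%, in 152 chow and 121 NASH diet barcodes whose median mitochondrial shares were 1.31% and 2.92%, Fos was 16.8 and 84.2 CPM, Egr1 31.0 and 95.1, and Jun 38.6 and 91.7, all higher in the NASH diet library. A single chow barcode held 27 of the 33 Fos UMIs; without the barcode richest in these genes in each library Fos was 3.06 and 70.02, Egr1 23.5 and 79.3, and Jun 30.6 and 77.5. The share of barcodes with a UMI was 15.1% and 11.6% for Egr1, 27.6% and 24.8% for Jun, and 4.61% and 12.4% for Fos, so the NASH diet level of Egr1 came from 14 of 121 barcodes. Malat1 moved with the levels, at 525 and 2591, or 283 and 2451 without the barcode richest in these genes. A Malat1 UMI was present in 8.55% and 33.9% of the barcodes below 10%, against 99.3% and 91.6% from 10 to 20%. Most barcodes below 10% thus showed no Malat1. From 10 to 20% Egr1 was 252 and 159 and Fos 152 and 122, and from 20 to 30% Egr1 was 280 and 117 and Fos 152 and 115, all lower in the NASH diet library. Other members were still higher there from 10 to 20%: Jun was 153 and 190, Ier2 85.9 and 118, Fosb 17.1 and 30.4, and Klf6 11.8 and 20.7, with Malat1 at 1336 and 2223. From 20 to 30% Jun was 165 and 128, Ier2 89.6 and 82.01, Fosb 18.1 and 12.3, and Klf6 8.53 and 5.81. From 30 to 80%, outside the limit used elsewhere, Egr1 was 240 and 149 but Fos 102 and 139. So Egr1 was lower in 3 of the 4 ranges and Fos in 2. Junb was lower in each of the 4, with log2 ratios of -0.84, -0.63, -0.64 and -0.60.

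The shallowest deep hepatocytes also differed from the others. Between 5000 and 10000 UMIs Fos was 74.8 in chow and 227 with the NASH diet, Jun 125 and 252, and Ier2 70.1 and 181. Egr1 was also higher with the NASH diet there, at 174 and 256 (log2 ratio 0.55, 0.32 to 0.79), and Junb was 172 and 162 (-0.09, with an interval that includes 0). In this range Malat1 was 1611 and 6646. From 10000 to 20000 UMIs the log2 ratio of Egr1 was -1.07 and from 20000 it was -1.08, and that of Junb -0.69 and -0.79. Malat1 was nearly even there, at 1088 and 1255, and 1262 and 1155. The part of the Malat1 difference in these results was not tested.

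Over all barcodes, without gates, the NASH diet library was higher at both ends of the mitochondrial scale. Below 10% Fos was 90.7 and 253 and Egr1 55.4 and 184. That range held unlike barcodes: 1934 in chow with a median of 643.5 non-mitochondrial UMIs, and 261 with a median of 6055 in the NASH diet library. Malat1 there was 2228 and 4577, and 1 NASH diet barcode held 149 of the 621 Fos UMIs. Above 80%, Fos was 50.6 and 208, Jun 93.8 and 276, and Egr1 81.9 and 363, from 55 and 171 Egr1 UMIs. Malat1 in those barcodes was 612 and 7692. Between 20 and 30%, where Malat1 was 1132 and 1479, Egr1 was 279 and 122 and Fos 152 and 117. From 10 to 20% Fos was 154 and 199 and Egr1 249 and 217, and from 30 to 80% Fos was 125 and 150 and Egr1 260 and 177, so that Egr1 was lower in the NASH diet library throughout the middle of the scale and Fos only between 20 and 30%.

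**Figure D4:**
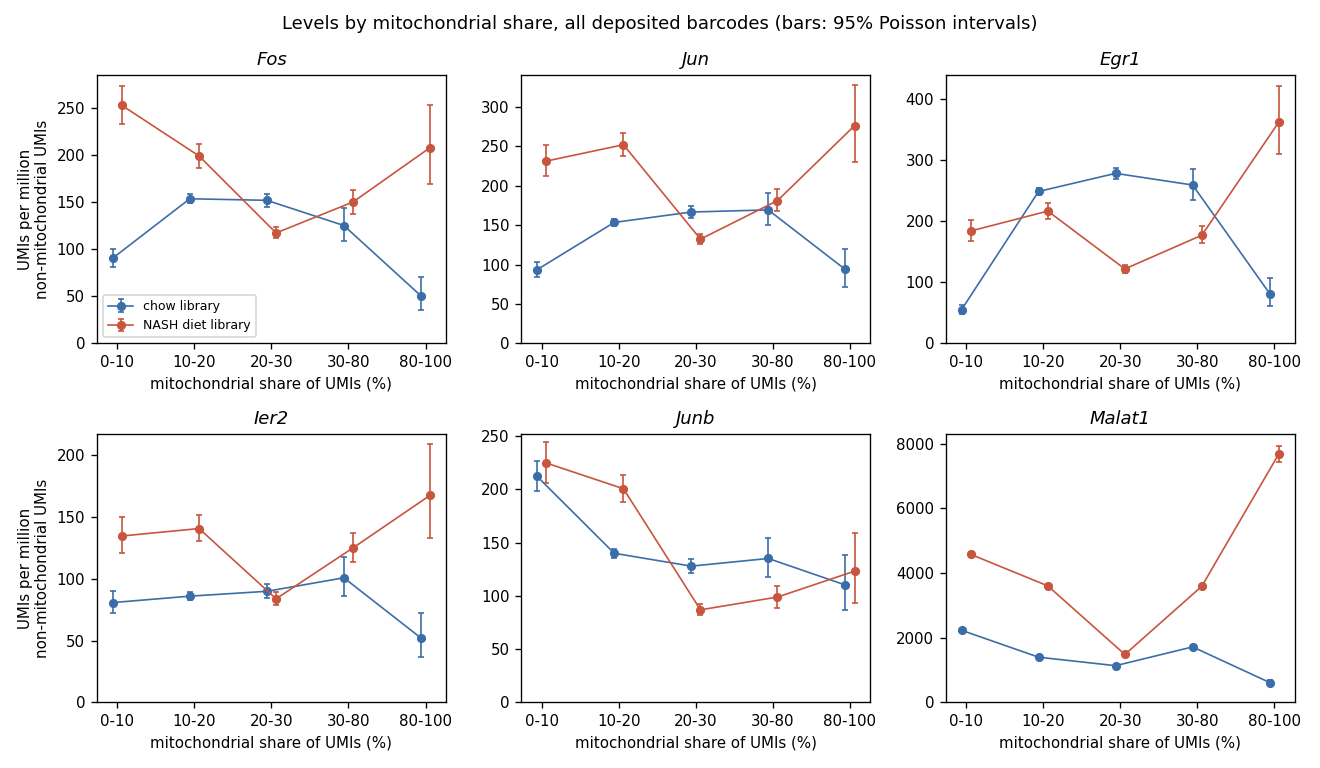
Levels of 5 of the genes and of Malat1 (y axis, CPM) in all deposited barcodes by mitochondrial share of UMIs (x axis), with 95% Poisson intervals, for the chow and NASH diet libraries. The NASH diet points lie above chow at the lowest and highest shares for Fos, Jun, Egr1 and Ier2, and below chow for Egr1 and Junb between 20 and 80%.

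In intermediate hepatocyte barcodes most members tested were higher in the NASH diet library. Of 6 members tested there, 5 were at least 2-fold higher in the NASH diet library, against 22.6% of 6074 genes, and 0 were lower, against 3.98%. Of these, Fosb met the minimum of 20 UMIs only through its NASH diet UMIs. The members below that minimum were Ier3 (8 and 0 UMIs), Klf6 (8 and 4), Atf3 (3 and 3) and Hspa1a (0 and 0). The interval of Ier3 lay below 0, so the counts of higher and lower members depend on the minimum. The median over all genes was itself 0.44. Egr1 was 86.1 and 368 CPM (log2 ratio 2.08, 1.71 to 2.50 without pseudocount), Fos 40.0 and 141 (1.80), Jun 94.9 and 313 (1.71) and Ier2 93.6 and 211 (1.16). Fosb had 0 and 20 UMIs, the latter in 7 of 288 barcodes, and the exact interval of its ratio begins at 5.27-fold. Its NASH diet level was 7.12-fold a floor of 3 UMIs over the chow group. Junb was even, at 179 and 175 (-0.03).

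These higher levels came with more Malat1, 2491 and 9402 CPM, and a Malat1 UMI was present in 16.2% of the chow and 37.8% of the NASH barcodes. The share of barcodes with an Egr1 UMI was 12.2% and 12.5%, and with a Jun UMI 12.9% and 14.2%, so no order is read from the shares. Among barcodes with a Malat1 UMI, a split added after the data were seen, the log2 ratio of Egr1 was 1.13, of Fos 1.05, of Jun 0.77 and of Ier2 0.54, so that Jun and Ier2 were less than 2-fold apart. Shallow hepatocyte barcodes held between 0 and 153 UMIs per member and were not compared further.

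In endothelial barcodes the members tested lay in 1 direction. Of 9 members tested all 9 lay above 0 and 5 were at least 2-fold higher in the NASH diet library, against 7.09% of 4837 genes, and 0 were lower, against 5.17%. Their median log2 ratio was 1.15, against 0.03 over all genes. Fos was 321 and 923 CPM (72 and 245 UMIs, log2 ratio 1.52, interval 1.14 to 1.92), Egr1 165 and 656 (1.98, 1.47 to 2.54) and Fosb 129 and 452 (1.80, 1.21 to 2.44). Hspa1a had 3 and 27 UMIs (log2 ratio 2.84; 7.60-fold, 2.34 to 39.1) and Ier3 14 and 37 (1.15). The interval of each of these excludes 0.

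Jun (460 and 859, log2 ratio 0.90), Junb (571 and 1134, 0.99), Klf6 (187 and 309, 0.72) and Ier2 (134 and 215, 0.68) were less than 2-fold apart, with intervals above 0. Atf3 had 2 and 12 UMIs and did not reach the count minimum. Thinned to 1000 UMIs, as the deep hepatocytes were (42 and 43 barcodes), the intervals of the libraries overlapped for every member. Fos was seen in 23.8% and 46.5%, Egr1 in 9.52% and 34.9%, and Fosb in 11.9% and 34.9%. Junb was in 35.7% and 51.2%, and Ier2 in 11.9% and 11.6%. Thinned to 2000 UMIs, 43.2% of 37 chow and 73.0% of 37 NASH diet barcodes showed Fos, and 27.0% and 62.2% Egr1 (without thinning 49.1% and 78.3%, and 25.5% and 67.4%). Junb was seen in 48.6% and 86.5% and Fosb in 24.3% and 54.1%, but Jun in 62.2% of both, Ier2 in 32.4% and 37.8%, Ier3 in 24.3% and 27.0%, and Klf6 in 35.1% and 45.9%. At 2000 UMIs only the intervals of Egr1 (13.8 to 44.1% and 44.8 to 77.5%) and Junb (31.9 to 65.6% and 71.2 to 95.5%) were apart. Median depth was 3973 and 4394 UMIs, with 13 of 55 chow and 3 of 46 NASH diet barcodes under 1000 UMIs. Malat1 was 10390.2 and 12242 CPM, and a Malat1 UMI was present in 72.7% and 89.1% of the barcodes, among which Fos was at 1.47, Egr1 at 1.94 and Hspa1a at 2.79. The median mitochondrial share was 11.5% and 16.7%, and some ratios moved with it: limited to 10% mitochondrial UMIs (25 and 7 barcodes), Egr1 was at 1.06, Junb at 0.19 and Ier2 at -0.74, while Fos was at 1.78, Fosb at 2.23 and Hspa1a at 2.20. No single barcode held more than 22.2% of the NASH diet UMIs of a member other than Atf3.

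In Kupffer cell barcodes all 8 members tested lay below 0, on few counts. Atf3 (8 and 3 UMIs) and Hspa1a (7 and 2 UMIs) were under the minimum of 20 UMIs. They lay above 0, at 0.99 and 0.60, with intervals that include 0. Of 8 members tested 4 were at least 2-fold lower in the NASH diet library, against 14.9% of 3514 genes, and 0 were higher, against 6.49%. The median log2 ratio was -0.93 over the members and -0.13 over all genes. Egr1 was 252 and 92.8 CPM (88 and 6 UMIs, log2 ratio -1.43), Jun 304 and 139 (106 and 9 UMIs, -1.12), Klf6 393 and 186 (137 and 12 UMIs, -1.08) and Ier3 63.0 and 15.5 (22 and 1 UMIs, -1.96, with an interval that includes 0). Fos was 536 and 309 (-0.79, -1.54 to -0.13). The Kupffer barcodes of the NASH diet library were shallower, with a median of 1091 UMIs against 4112, held more hepatocyte marker RNA (1.97% against 0.712%), and 30.8% of them had a Malat1 UMI against 73.0%. Among the 46 and 12 barcodes with a Malat1 UMI, Fos was at -0.03, Jun at -0.37, Klf6 at -0.30 and Egr1 at -0.68, so less than 2-fold apart, and Ier3 at -1.24. With clusters in place of gates (93 and 113 barcodes), Jun, Egr1 and Klf6 were at 0.28, 0.074 and 0.27, so their direction rests on the gate. Limited to 10% mitochondrial UMIs, Fos was at 1.1999, Fosb at 1.34 and Junb at 0.71, from 28 chow barcodes and 1 NASH diet barcode.

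In the other leukocytes (18 and 29 barcodes of mixed lineages, whose make-up can differ between the libraries), 4 of 8 members tested were at least 2-fold higher in the NASH diet library, against 11.7% of 2055 genes, and 1 was lower, against 5.94%. Jun had 6 and 46 UMIs (log2 ratio 2.38), Klf6 23 and 88 (1.40), Egr1 1 and 19 (3.57) and Fosb 3 and 24 (2.42). Of these, Jun, Egr1 and Fosb met the count minimum mainly through their NASH diet UMIs, so the count of higher members depends on that minimum. The lower member, Ier3, had 15 and 9 UMIs (-1.25), with an interval that includes 0. Fos, with 64 and 52 UMIs, was lower by less than 2-fold but beyond counting error (-0.83, -1.39 to -0.28 without pseudocount). A single NASH diet barcode held 63.2% of the Egr1 and 70.8% of the Fosb UMIs. Leiden clusters, with 8 and 3 barcodes, turned Jun and Fosb to lower values in the NASH diet library, and a gate at 1% put Fosb at -0.86. Malat1 was 9201 and 17520 CPM. Junb, at 662 and 665, was even.

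The wider response was described with 4 lists of related genes in deep hepatocytes, where the share of genes at least 2-fold apart was as given above. Of 22 other AP-1 and early transcription factor genes tested, 1 was higher and 3 were lower: Nr4a2 (log2 ratio 1.01, from 14 and 30 UMIs), and the helix-loop-helix inhibitors Id1 (-1.64, 32.1 and 9.62 CPM) and Id3 (-1.13, 200 and 90.9) with the repressor Nfil3 (-1.12, 37.1 and 16.6). Id2 was at -0.90, and Maff, Klf2 and Klf4 were at 0.80, 0.80 and 0.42. The list median was 0.02, against 0.15 over all genes.

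Of 26 feedback and RNA decay genes, 0 were higher and 3 lower: Sgk1, a serum and glucocorticoid induced kinase (-1.84, 22.6 and 5.59), Gadd45g, a growth arrest gene (-1.68, 101 and 30.8), and Socs3, the feedback inhibitor of cytokine signalling (-1.61, 76.5 and 24.4). Dusp8 was at -0.94, while Dusp6, the ERK phosphatase, was at 0.78, Tnfaip3 at 0.61, Cyr61 at 0.51 and Mcl1 at 0.37. The list median was -0.26. In endothelial barcodes, where 7.09% of all genes were higher and 5.17% lower, 3 of 23 genes of this list were higher and 2 lower. There the AP-1 and transcription factor list had 1 of 15 higher and 2 lower, the heat shock list 0 of 17 and 1, and the upstream signalling list 0 of 17 and 0. The median log2 ratios of the 4 lists in endothelial barcodes were 0.37, 0.08, 0.24 and 0.04, against 0.03 over all genes.

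Of 23 heat shock genes none was 2-fold apart in deep hepatocytes, and the median was 0.22. The co-chaperones Dnajb1 (0.76, 18.1 and 31.4) and Dnajb4 (0.66) stood highest, with Hspa4l (0.59) and the mitochondrial chaperone Hspd1 (0.54), and Hspb8 (-0.71), Cryab (-0.40), Hsph1 (-0.13) and Hspa1b (-0.00) lowest. Of 24 upstream signalling genes, 1 was higher, the ERK-activated kinase gene Rps6ka1 (1.01, 4.89 and 10.8), and 0 were lower. Egfr, the receptor upstream of ERK, was just inside the 2-fold line at -0.97 (633 and 322 CPM), as was Map3k1 at -0.98. Elk1 and Crebbp were at -0.59 and -0.09, and Mapk14, Met and Mapk9 at 0.44, 0.43 and 0.34. The list median was 0.13, close to that of all genes.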

How the data were processed

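Single-cell 3′ RNA sequencing counts of 2 mouse liver libraries were used. The authors deposited raw UMI counts, whole numbers that were not normalized. Per the file headers the software was Cell Ranger 3.0.2, while the submitters' processing notes list Cell Ranger 3.1.0, Seurat and the build mm10. The labels name the version of the 10x kit, but the barcodes leave it uncertain. A deposited merged matrix, with 86.4% of the chow UMIs, served as an alternative.

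Counts were summed per cell group and divided by non-mitochondrial UMIs (Python 3.11.15, numpy 2.4.6, scipy 1.17.1). A non-parenchymal gate took barcodes with at least 3 markers of a class at 0.3% or more of UMIs. Barcodes passing 2 gates (20 chow, 19 NASH diet) were left out as mixed, which is how doublets were treated. Scrublet (scanpy 1.11.5) called 0 by its own threshold. Hepatocyte barcodes had at least 3 hepatocyte markers at 1% or more. Clustering split the hepatocytes by library, so gates replaced it and Leiden clusters are an alternative. The ratio calculation was run on simulated Poisson counts with no variation between barcodes, animals or preparations, which checks the arithmetic only. The genes and lists were chosen with earlier results of these data known. Named genes are all 10, the 4 highest and 4 lowest of each list, and the nearest profiles. The promoters of Egr1 and Ier2 were not used here.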

Additional observations from a re-analysis of the deposited data

Results flagged for a closer look

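Jun, Egr1 and Klf6 lay at least 2-fold apart between the libraries in opposite directions in different cell groups, and none of these differences was tested. For each gene the groups furthest apart among those compared above are given. Jun had a log2 ratio of 2.38 in other leukocytes and -1.12 in Kupffer barcodes, a difference of 3.51. Egr1 had 3.57 and -1.43 in the same groups, a difference of 5.01, from 1 chow UMI in the leukocytes. Klf6 had 1.40 and -1.08, a difference of 2.48. Egr1 was also higher in intermediate hepatocytes (2.08) and endothelial barcodes (1.98), and lower in deep hepatocytes (-1.002). Jun was also higher in intermediate hepatocytes (1.71). Leiden clusters turned Kupffer Jun, Egr1 and Klf6 to 0.28, 0.074 and 0.27, and leukocyte Jun to -7.88.

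The 19 NASH diet barcodes that passed 2 cell type gates, used in no comparison above, held 5309 CPM of the 10 genes together, against 2414 in the 20 such chow barcodes. The marker make-up of the 2 sets differed most for Kupffer markers, at 0.417% of UMIs in the NASH diet and 1.54% in the chow barcodes. Endothelial markers were at 1.06% and 0.992%, and mesenchymal markers at 1.42% and 1.34%. The part of this difference in the levels was not tested.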

How the results depend on the processing

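In deep hepatocytes the 1 gene at least 2-fold higher became 0 with a pseudocount of 10 or with Hspa1a and Hspa1b summed, 2 with a mitochondrial limit of 20% and 5 with a limit of 10%. The 1 gene at least 2-fold lower, Egr1 at -1.002, became 0 with a pseudocount of 10, a mitochondrial limit of 20% or no limit, deep barcodes counted from 2000 UMIs, the mean over barcodes, thinning to 5000 UMIs, the merged matrix, or the highest Scrublet scores removed. Over all genes, 393 higher became 675 and 147 with a pseudocount of 0.1 and 10, and 643 with a mitochondrial limit of 20%, and 231 lower became 392 and 111 with a pseudocount of 0.1 and 10.

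Egr1 turned to 1.59 in deep hepatocytes limited to 10% mitochondrial UMIs. Across 18 alternatives Junb stayed between -0.85 and -0.52 there, and Atf3 also kept its sign. Hspa1a kept its sign in 19 alternatives, down to 0.15 for the sum with Hspa1b. In endothelial barcodes the 9 tested members kept their sign in 16 alternatives (17 for Hspa1a), except Ier2, at -0.74 with a mitochondrial limit of 10%. That limit also moved endothelial Junb from 0.99 to 0.19 and Egr1 from 1.98 to 1.06 (25 and 7 barcodes), and turned Kupffer Fos, Fosb and Junb to 1.1999, 1.34 and 0.71 (28 barcodes and 1 barcode).

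With Leiden clusters, Kupffer Jun, Egr1 and Klf6 turned to 0.28, 0.074 and 0.27 (that cluster held 93 chow and 113 NASH diet barcodes), and leukocyte Fosb and Jun to -7.15 and -7.88 (8 and 3 barcodes). With a gate at 1% leukocyte Fosb was at -0.86. The alternatives limited to barcodes of at least 1500 UMIs, to barcodes with a Malat1 UMI, to at least 10000 UMIs with 10 to 30% mitochondrial UMIs, and without the richest barcode below 10% were chosen after seeing the data. No paired analysis was possible because each diet had 1 library. Depth limits the small groups: the interval of Kupffer Junb, with 23 NASH diet UMIs, ran from -1.13 to 0.21.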

Other observations

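The highest summed levels of the 10 genes were in barcodes too few to compare. The 2 cholangiocyte-gated barcodes of the NASH diet library held 11772 CPM of the 10 genes together, and the 1 such chow barcode 11358. Fos was 3351 and 2884, Jun 2509 and 2704, and Junb 2131 and 2163 CPM in the NASH diet and chow barcodes. The 4 mesenchymal barcodes of the NASH diet library held 9032 and the 2 of chow 1896. Each member detected there had all its UMIs in 1 barcode of the library, so these are not levels shared by the group.

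In barcodes that passed 2 gates, each of the 10 genes had its higher level with the NASH diet: Egr1 was 179 and 842 CPM, Fos 472 and 1068, and Junb 536 and 1164, while Malat1 was 13198 and 7401. The intervals of the ratios of Atf3, Ier3 and Klf6 included 0 there.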
